A study of Mus musculus with 6 samples.

Results

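The genes described here encode the proteasome, the large protease that degrades proteins marked with ubiquitin. They were chosen by name, as every gene whose symbol is Psm followed by a letter from a to g and a number and which has at least 1 probe set annotated to it alone. Psmb8, Psmb9 and Psmb10, the subunits of the immunoproteasome, were left out of the group and are given separately. This gave 44 genes on 96 probe sets, out of 18193 genes on the array with a probe set of their own.

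Transcript levels were measured in PICs, interstitial cells of muscle named for their expression of PW1, and in satellite cells, the resident stem cells of muscle fibres. Both came from digested hindlimb muscle. The donors were C57 black 6 mice, 7 to 9 days old, with no treatment named in the labels, and the cells were separated by flow cytometry on CD34 and Sca1. Each population had 3 arrays that the labels call biological replicates, and the labels do not say whether animals were pooled. Each array received cRNA made from 200 ng of total RNA, so a level here is a share of the RNA of a sorted population; fewer cells expressing a gene and less of its RNA per cell cannot be told apart.

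The proteasome consists of a barrel-shaped core particle, which cuts proteins, and regulatory particles at its ends, which bind ubiquitin chains, unfold the substrate and feed it inwards. The core particle has outer rings of alpha subunits (Psma genes), which form the gate, and inner rings of beta subunits (Psmb genes), some of which carry the active sites. The regulatory particle has a ring of ATPases (Psmc genes) and a set of non-ATPase subunits (Psmd genes). Other Psm genes encode alternative activators and an inhibitor (Psme and Psmf genes) and chaperones that assemble the particles (Psmg genes and a few Psmd genes). Transcripts of the subunits are known to be produced in concert, in mammals largely through the transcription factor encoded by Nfe2l1, which binds antioxidant response elements, and the proteasome is needed for cell division and for the remodelling of muscle.

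Of the 44 genes, 42 were measured above the low value level, a log2 intensity of 4 (linear intensity 16), on all 6 arrays. The remaining members were Psma8, an alpha subunit of male germ cells, with an intensity of 6 on every array, and Psmb11, the beta subunit of the thymus, with an intensity of 5 on every array. Neither had a measured level in PICs or in satellite cells. Psme2, which encodes the partner of Psme1 in the PA28 activator, had no probe set annotated to it alone and was not analysed here.

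Promoter sequences of a few members are shown because most of the group differed between the populations in the same direction. The windows cover 250 bases before to 50 bases after the gene start in the GRCm38.p6 assembly, from RefSeq, 5′ to 3′ on the strand of the gene, and were chosen after the values were seen. Capitals mark matches on either strand to TGACNNNGC, the core of an antioxidant response element, and to CCAAT, the box bound by NF-Y. Psmb6 and Psmb5 encode active-site subunits, Psmc1 an ATPase with one of the larger differences, and Psmf1 was the member that differed in the opposite direction.
Psmb6 (chr11:70525107-70525406, plus strand): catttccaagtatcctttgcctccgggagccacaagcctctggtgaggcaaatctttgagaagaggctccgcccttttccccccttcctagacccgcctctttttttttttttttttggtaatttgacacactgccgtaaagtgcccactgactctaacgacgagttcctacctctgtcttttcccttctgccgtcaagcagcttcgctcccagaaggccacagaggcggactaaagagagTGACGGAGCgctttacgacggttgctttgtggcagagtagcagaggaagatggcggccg
Psmb5 (chr14:54617946-54618245, minus strand): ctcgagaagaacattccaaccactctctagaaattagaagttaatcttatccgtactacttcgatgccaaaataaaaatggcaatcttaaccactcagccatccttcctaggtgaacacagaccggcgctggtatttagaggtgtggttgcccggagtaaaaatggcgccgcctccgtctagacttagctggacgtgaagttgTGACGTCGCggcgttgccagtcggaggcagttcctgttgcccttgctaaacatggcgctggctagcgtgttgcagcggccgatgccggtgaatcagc
Psmc1 (chr12:100109952-100110251, plus strand): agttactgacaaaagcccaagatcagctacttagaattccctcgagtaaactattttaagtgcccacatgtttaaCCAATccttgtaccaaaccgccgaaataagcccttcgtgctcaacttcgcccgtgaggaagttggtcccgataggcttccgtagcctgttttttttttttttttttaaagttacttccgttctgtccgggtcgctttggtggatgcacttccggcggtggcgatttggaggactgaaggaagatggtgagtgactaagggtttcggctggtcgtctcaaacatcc
Psmf1 (chr2:151741261-151741560, minus strand): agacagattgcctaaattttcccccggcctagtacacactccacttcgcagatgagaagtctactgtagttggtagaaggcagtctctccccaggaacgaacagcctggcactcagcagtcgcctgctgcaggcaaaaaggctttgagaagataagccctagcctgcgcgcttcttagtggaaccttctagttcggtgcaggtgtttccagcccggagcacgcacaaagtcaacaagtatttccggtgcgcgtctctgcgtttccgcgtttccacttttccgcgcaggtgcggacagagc
TGACNNNGC starts 9 bases before the gene start in Psmb6 and 47 bases before it in Psmb5, and CCAAT starts 175 bases before it in Psmc1. The Psmf1 window holds neither motif. Among the 36 members with a window in the table, 6 held TGACNNNGC (16.7%), against 14.0% of 27025 genes with a window of the same length. CCAAT was found in 13 of the 36 (36.1%), against 41.1% of all genes. Of the 26 members with a window that passed the test below as higher in satellite cells, 5 held TGACNNNGC and 10 held CCAAT.

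Proteasome transcripts were more abundant in satellite cells than in PICs. Of the 42 genes tested, 31 passed as higher in satellite cells (limma, adjusted p under 0.05), where 28.6% of the 10855 genes tested did. Only Psmf1, the inhibitor gene, passed as higher in PICs, where 27.6% of all genes did. The other 10 genes did not pass. Differences below are log2 values of satellite cells minus PICs unless stated otherwise, and their median over the 42 genes was 0.59, a fold of 1.50, against 0.04 over all genes tested. The fitted value was above 0 in 41 of the 42 genes, and in 52.1% of all genes. The 3 satellite arrays all lay above the 3 PIC arrays in 35 of the 42 genes (33.2% of all genes), and the reverse held for Psmf1 (31.3% of all genes).

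Differences over the 42 genes ran from -0.52 for Psmf1 and 0.03 for Psmb4 to 1.19 for Psme3 and 1.30 for Psmg3. A difference of at least 2-fold was found in 4 of the 42 genes, all higher in satellite cells (13.0% of all genes passed this stricter rule in that direction), and in 0 genes higher in PICs (16.7% of all genes). In 37 of the 42 genes each satellite array lay above the PIC array of the same replicate number. The median paired difference was 0.66 for number 1, 0.57 for number 2 and 0.47 for number 3. With the replicate number as a block, 32 members passed as higher in satellite cells, where 32.4% of all genes did.

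The count of passing members depended on the arrays used, while the median difference moved little. Leaving out satellite replicate 2 gave 20 members higher in satellite cells (21.9% of all genes passed there) and a median difference of 0.56. Without both arrays numbered 1, 12 members passed (28.6% of the 42, against 20.5% of all genes), with a median of 0.52. Without both numbered 2, 3 members passed (7.14% of the 42, against 14.0% of all genes), with a median of 0.58. Of the 32 members that passed in either direction, 20 passed whichever single array was left out. The fits with arrays left out did not use the replicate number as a block.

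**Figure D1:**
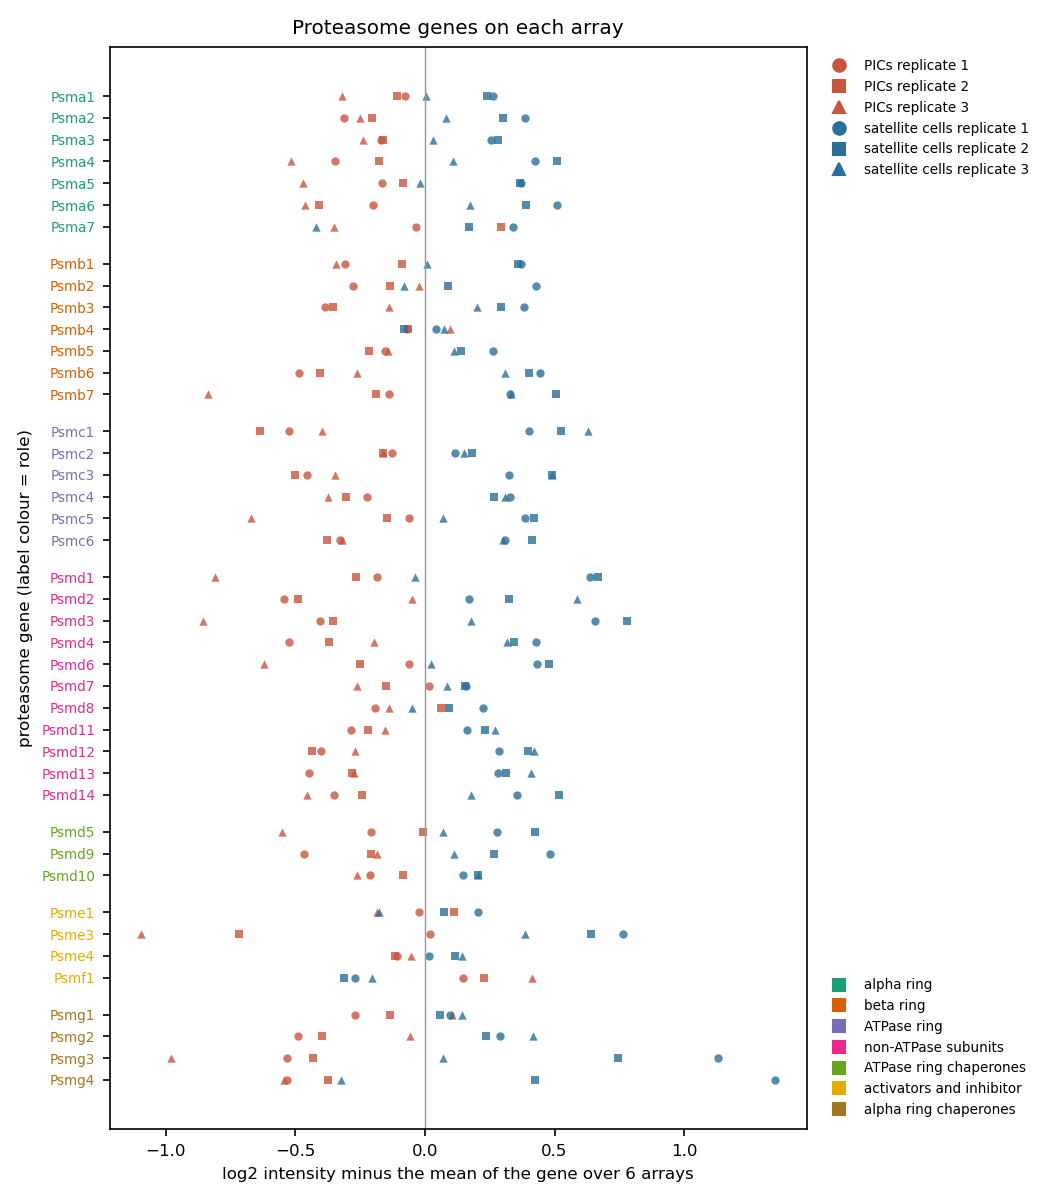
Log2 intensity of 42 proteasome genes on each of 6 arrays, minus the mean of the gene over the arrays (x axis), with genes grouped by role (y axis); red marks are PICs, blue marks are satellite cells and the marker shape gives the replicate number. In 35 genes the blue marks all lie to the right of the red marks, and in Psmf1 they all lie to the left.

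In the alpha ring 5 of 7 tested genes passed as higher in satellite cells, with a median difference of 0.48. Psma6 differed by 0.71 ± 0.14 (SE; adjusted p = 0.00487), with means of 12.40 ± 0.14 (PICs) and 13.11 ± 0.17 (satellite cells; SD over 3 arrays), and Psma4, whose product has a central part in the gate, by 0.69 ± 0.16 (adjusted p = 0.00923). Psma2 differed by 0.51 (adjusted p = 0.0117), Psma5 by 0.48 (adjusted p = 0.0482) and Psma3 by 0.38 (adjusted p = 0.0298). Psma5 and Psma3 were the weaker calls of the ring in the fit without the replicate block: each was lost without any 1 of 5 arrays. With the block their adjusted p-values were 0.0106 and 0.0259, and that of Psma2 was 0.0165. A further Psma5 probe set gave a difference of 0.71 without overlap of the arrays. Psma1 lay at 11.49, 11.46 and 11.25 in PICs and at 11.83, 11.81 and 11.57 in satellite cells, without overlap, but did not pass (0.34, 95% interval 0.02 to 0.65, adjusted p = 0.0662); with the replicate block its adjusted p was 0.03. Psma7 was the exception in the ring, with overlapping values of 10.02, 10.35 and 9.70 in PICs and 10.39, 10.22 and 9.63 in satellite cells. Its difference was 0.06 (95% interval -0.55 to 0.67, adjusted p = 0.857), an interval that includes the median of the group.

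In the beta ring the active-site genes all passed as higher in satellite cells. Psmb6, the caspase-like site, lay at 11.15, 11.23 and 11.37 on the PIC arrays and at 12.08, 12.03 and 11.94 on the satellite arrays. The populations were well separated, 1.70-fold apart (0.77 ± 0.11 SE, adjusted p = 0.00148). Psmb7, the trypsin-like site, lay at 10.92, 10.87 and 10.22 in PICs and 11.38, 11.56 and 11.39 in satellite cells, and PIC replicate 3 was the low array. Its difference was 0.78 ± 0.21 (SE, adjusted p = 0.0182), and without satellite replicate 2 it was not called (adjusted p = 0.0657). Psmb5, the chymotrypsin-like site, which proteasome inhibitor drugs target, lay at 11.32, 11.26 and 11.33 in PICs and 11.74, 11.61 and 11.59 in satellite cells. This difference of 0.34 ± 0.10 was smaller but the arrays did not overlap (SE, adjusted p = 0.0295); it was not called without any 1 of PIC replicates 1 and 2 or satellite replicates 1 and 2 (adjusted p up to 0.0962).

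The structural beta subunits differed among themselves. Psmb3 was higher in satellite cells by 0.58 (adjusted p = 0.0065) and Psmb1 by 0.49 (adjusted p = 0.0286; not called without any 1 of 4 arrays). Psmb2 had overlapping arrays and a difference of 0.29 (95% interval -0.10 to 0.68, adjusted p = 0.175). Psmb4 lay at 13.71, 13.71 and 13.88 in PICs and 13.82, 13.70 and 13.85 in satellite cells. Its difference was 0.03, and its 95% interval of -0.24 to 0.29 does not reach the group's median of 0.59. A further Psmb4 probe set gave 0.04, so both probe sets of this gene lay near 0.

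Each of the 6 genes of the ATPase ring of the regulatory particle passed as higher in satellite cells, with a median of 0.64. Psmc1 lay at 10.66, 10.55 and 10.79 in PICs and at 11.59, 11.71 and 11.82 in satellite cells. It was 2.05-fold higher in satellite cells (1.04 ± 0.12 SE, adjusted p = 0.000588). Psmc3 lay at 11.08, 11.03 and 11.19 in PICs and at 11.86, 12.02 and 12.02 in satellite cells. Its arrays also stood clearly apart, 1.83-fold (0.87 ± 0.11 SE, adjusted p = 0.000826). Psmc6 differed by 0.68 (adjusted p = 0.00153), Psmc4 by 0.60 (adjusted p = 0.00282), Psmc5 by 0.59 (adjusted p = 0.0439) and Psmc2 by 0.30 (adjusted p = 0.0367). On the probe set used, whose name ends in _x_at, Psmc2 had the smallest difference of the ring. Its means were 13.26 ± 0.02 (PICs) and 13.56 ± 0.03 (satellite cells, SD over 3 arrays). A further Psmc2 probe set had 11.39, 11.49 and 11.48 in PICs and 11.96, 12.06 and 11.96 in satellite cells, a difference of 0.54. Psmc2 was not called without any 1 of the 6 arrays and Psmc5 without any 1 of 4. With all arrays and the replicate block their adjusted p-values were 0.0447 and 0.0087. Psmc1, Psmc3 and Psmb6 were the 3 members called under all 19 alternative settings.

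Among non-ATPase subunits of the regulatory particle 9 of 11 genes passed as higher in satellite cells, and the median was 0.70. Psmd3, a structural subunit of the lid, lay at 9.71, 9.76 and 9.26 in PICs and at 10.77, 10.89 and 10.29 in satellite cells. Array 3 was the low one in both populations, and the difference was 1.08 ± 0.21 (SE, 2.11-fold, adjusted p = 0.00562). Psmd1, a scaffold of the base, lay at 11.13, 11.05 and 10.50 in PICs and at 11.95, 11.98 and 11.27 in satellite cells. It too was low on both arrays numbered 3, and differed by 0.84 ± 0.26 (SE, adjusted p = 0.0306; 0.00207 with the replicate block); leaving out any 1 of 4 arrays ended the call. Psmd2, the other large scaffold, differed by 0.72 (adjusted p = 0.0152) and was high on both arrays numbered 3, at 11.44 in PICs and 12.07 in satellite cells. Psmd2 was not called without PIC replicate 1 or 2 (adjusted p up to 0.0589).

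Psmd4, a ubiquitin receptor, differed by 0.73 (adjusted p = 0.00284), and Psmd14, the deubiquitinase that removes the chain before degradation, by 0.70 (adjusted p = 0.0045). Psmd7, the partner that holds Psmd14 in place, had a difference of 0.27 and did not pass (95% interval -0.02 to 0.55, adjusted p = 0.0957). Of the structural lid subunits, Psmd12 differed by 0.74 (adjusted p = 0.00152), Psmd13 by 0.67 (adjusted p = 0.00239), Psmd6 by 0.62 (adjusted p = 0.0346; not called without any 1 of 4 arrays) and Psmd11 by 0.44 (adjusted p = 0.0107). The adjusted p of Psmd6 was 0.00604 with the replicate block. The Psmd11 probe set ends in _s_at and can match several transcripts. Its other probe sets above the low value level gave 0.23 and 0.29, each with overlapping arrays, and 0.56 without overlap. Over the alternative settings the adjusted p of Psmd11 reached 0.463. Psmd8 had overlapping arrays and a difference of 0.18 (95% interval -0.13 to 0.49, adjusted p = 0.281).

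**Figure D2:**
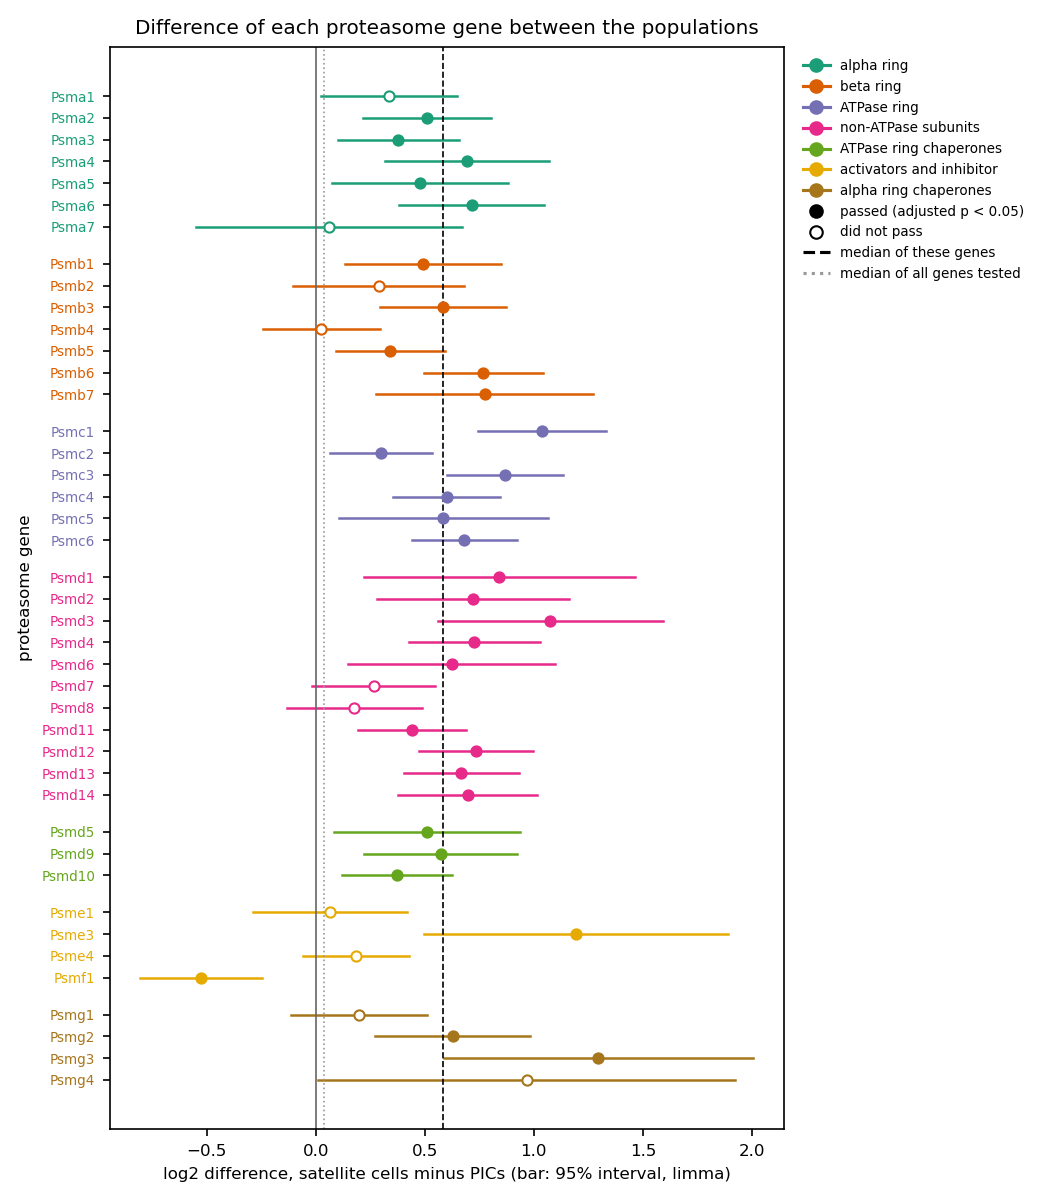
Log2 difference of each proteasome gene, satellite cells minus PICs (x axis), with its 95% interval from limma, by gene and role (y axis); filled points passed at an adjusted p under 0.05 and open points did not. The dashed line is the median of the 42 genes at 0.59 and the dotted line the median of all genes tested at 0.04; Psmf1 is the only point left of 0.

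Of the 4 chaperones that assemble the alpha ring, 2 passed as higher in satellite cells, Psmg3 and Psmg2. Psmg3, which pairs with Psmg4 to build the alpha ring, lay at 6.81, 6.91 and 6.36 in PICs and at 8.47, 8.08 and 7.41 in satellite cells. It was 2.46-fold higher in satellite cells (1.30 ± 0.29 SE, adjusted p = 0.00975), and its satellite arrays were spread over more than 1 log2 unit. With the mean of its kept probe sets the Psmg3 difference was 0.65 (adjusted p = 0.0145). Psmg4 lay at 6.93, 7.09 and 6.92 in PICs and at 8.81, 7.89 and 7.14 in satellite cells. The satellite arrays lay above the PIC arrays but far apart from each other, and the difference of 0.97 did not pass (95% interval 0.01 to 1.92, adjusted p = 0.0784). The size depended on single arrays: the difference was 0.54 without satellite replicate 1 (adjusted p = 0.123) and 1.37 without satellite replicate 3, where it passed (adjusted p = 0.012). Of the other pair, Psmg2 differed by 0.63 (adjusted p = 0.011) and its partner Psmg1 by 0.20 (95% interval -0.11 to 0.51, adjusted p = 0.235).

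The 3 chaperones of the ATPase ring with Psmd names all passed as higher in satellite cells. Psmd9 differed by 0.57 (adjusted p = 0.0151), Psmd5 by 0.51 (adjusted p = 0.0466) and Psmd10, known as gankyrin, by 0.37 (adjusted p = 0.0227). Psmd5 was not called without any 1 of 4 arrays, and Psmd10 without any 1 of 3. Their adjusted p-values with all arrays and the replicate block were 0.0103 and 0.0267. The range of these differences lay within that of the ATPase genes, 0.30 to 1.04.

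The activators and the inhibitor were the role with the widest contrast. Psme3, the nuclear activator PA28 gamma, lay at 8.31, 7.58 and 7.20 in PICs and at 9.06, 8.93 and 8.68 in satellite cells. PIC replicate 1 was the high array of its population, and the difference was 1.19 ± 0.29 (SE, 2.29-fold, adjusted p = 0.0126). A further Psme3 probe set had 6.92, 6.85 and 6.94 in PICs and 8.52, 8.50 and 8.58 in satellite cells, a difference of 1.63. Psme1, a subunit of the interferon-induced activator PA28 alpha-beta, lay at 9.21, 9.35 and 9.05 in PICs and at 9.44, 9.31 and 9.06 in satellite cells. These overlapped, with a difference of 0.07 (adjusted p = 0.727) whose 95% interval of -0.29 to 0.42 does not reach the group's median. Psme4, the activator PA200, differed by 0.19 without overlap and did not pass (adjusted p = 0.163).

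Psmf1, which encodes the proteasome inhibitor PI31, lay at 9.16, 9.24 and 9.42 in PICs and at 8.74, 8.70 and 8.81 in satellite cells. On this probe set it was 1.44-fold higher in PICs (log2 difference of PICs minus satellite cells 0.52, 95% interval of the reverse difference -0.80 to -0.24, adjusted p = 0.00874). The call rests on that probe set, and its name ends in _s_at, the suffix for probes that can match several transcripts. Of the other Psmf1 probe sets above the low value level, one had a difference of -0.19, higher in PICs, and another 0.11, higher in satellite cells, with values of 7.95, 8.20 and 8.21 in PICs and 8.20, 8.30 and 8.20 in satellite cells.

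Other probe sets of the same genes mostly gave the same direction. Of the 96 probe sets of the group, 71 were above the low value level on at least 3 arrays, and 68 of these were higher in satellite cells. The 29 that were not used for the tests had a median difference of 0.54, and 27 of them were higher in satellite cells. Among the 21 genes with several such probe sets, 19 had all of them in the same direction. The exceptions were Psmf1 and Psmg3, whose further probe set lay between 4 and 4.09 on every array, at the low value level, with a difference of 0. The size of a difference was less stable than its direction: Psma3 gave 0.38 on the probe set used and 1.67 on a dimmer one, and Psma1 gave 0.34 and 1.27.

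**Figure D3:**
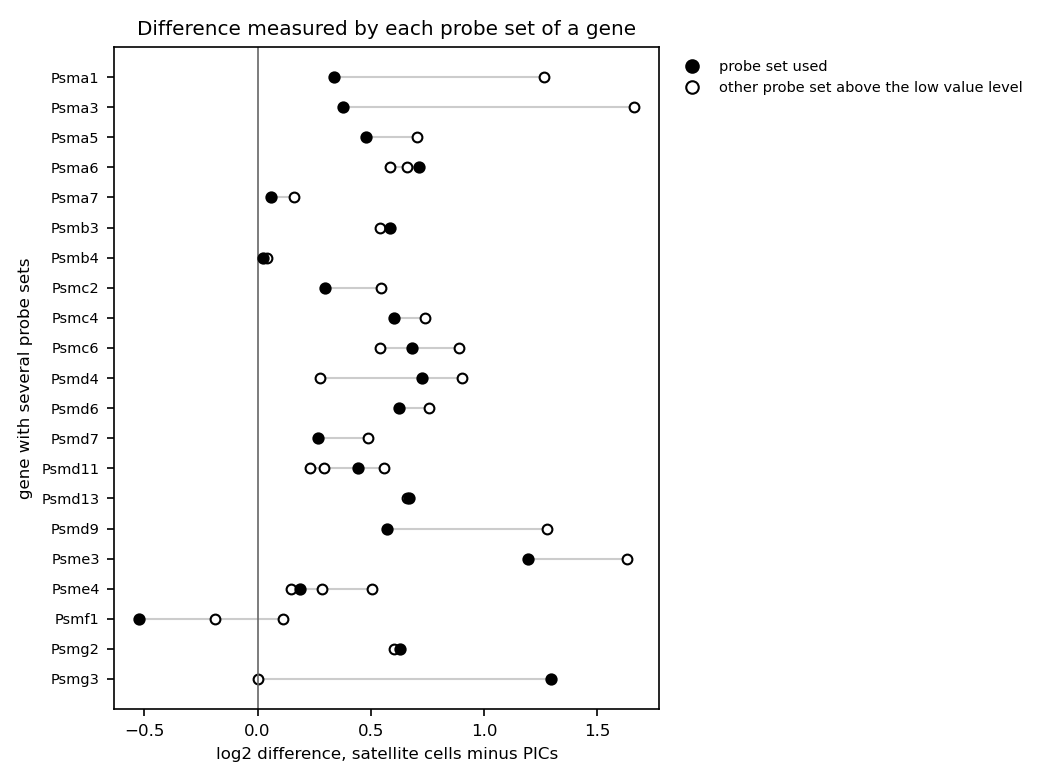
Log2 difference, satellite cells minus PICs (x axis), measured by each probe set above the low value level of the 21 proteasome genes that have several (y axis); filled points are the probe sets used in the tests and open points the others. Points of 19 genes all lie right of 0, while those of Psmf1 fall on both sides and Psmg3 has one at 0.

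Of the immunoproteasome genes, Psmb10 passed as higher in PICs, and Psmb8 and Psmb9 gave no measurable direction. Psmb10, the inducible counterpart of Psmb7, lay at 8.09, 8.65 and 8.30 in PICs and at 7.10, 6.29 and 6.70 in satellite cells. It was 3.14-fold higher in PICs (log2 difference of PICs minus satellite cells 1.65 ± 0.24 SE, adjusted p = 0.00156), while Psmb7 was 1.71-fold higher in satellite cells. Psmb8, the counterpart of Psmb5, had an intensity of 17 on every array, next to the low value level. Psmb9, the counterpart of Psmb6, had intensities of 15, 13 and 12 in PICs and 24, 14 and 15 in satellite cells and was not tested.

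Class I antigen presentation uses peptides cut by the proteasome. Of its 10 genes, 4 passed as higher in PICs and 0 in the other direction (27.6% and 28.6% of all genes). With the replicate block, where 3365 of all 10855 genes passed as higher in PICs, 5 class I genes did, with H2-K1 added. They included B2m, the light chain of class I molecules (3.73-fold, adjusted p = 0.000267), Pdia3, a chaperone of the peptide loading complex (2.43-fold, adjusted p = 0.00162), and Tapbp, which links class I molecules to the transporter (2.42-fold, adjusted p = 0.000432). The peptide transporter genes Tap1 and Tap2 did not pass (adjusted p = 0.481 and 0.647). In the interferon response list 4 of 6 tested genes passed as higher in PICs (27.6% of all genes), among them Ifit3 at 6.67-fold. In the other direction 0 passed (28.6% of all genes). The chemokine gene Cxcl9 had means of 9.37 in PICs and 3.09 in satellite cells, the latter under the low value level. Its satellite arrays lay at 2.32, 2.00 and 4.95, so satellite replicate 3 was above that level. Cxcl10, another chemokine gene of the list, differed by 0.73 with overlapping arrays and did not pass (adjusted p = 0.511). Irf1, a regulator of immunoproteasome genes, differed by 0.35 and did not pass (adjusted p = 0.738), with values between 9.51 and 12.21 in PICs.

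Of 12 tested partners of the proteasome that are not named Psm, 5 passed as higher in satellite cells (28.6% of all genes). In the other direction 0 passed (27.6% of all genes). With the replicate block 6 passed as higher in satellite cells, with Zfand5 added (32.4% of all genes). Adrm1, Paaf1 and Ddi2 were on the list but were not tested. Uchl5 and Usp14, deubiquitinases that bind the regulatory particle, were 1.82-fold and 1.70-fold higher in satellite cells (adjusted p = 0.000984 and 0.0034). Txnl1 differed by 0.64, Ecpas, which tethers the particles, by 0.43 and Akirin2, a factor of nuclear import of proteasomes, by 0.37. Pomp, the maturation factor of the core particle, and Sem1, a small lid subunit, had differences of 0.24 and 0.16 and did not pass (adjusted p = 0.177 and 0.404).

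Nfe2l1, the regulator of the subunit genes, lay at 9.16, 9.09 and 8.94 in PICs and at 8.94, 8.92 and 9.07 in satellite cells. The arrays overlapped, and its difference was -0.09 (adjusted p = 0.544). Its relative Nfe2l2 also had a difference of -0.09 (adjusted p = 0.607), and Ngly1, the glycanase that processes the Nfe2l1 protein, one of -0.23 (adjusted p = 0.18).

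Of 8 tested genes of ubiquitin activation and shuttling, 6 passed towards satellite cells and 1 towards PICs (28.6% and 27.6% of all genes). Ubqln4, a shuttle factor, differed by 1.12 (adjusted p = 0.00928) and Nploc4, a cofactor of the segregase Vcp, by 0.75 (adjusted p = 0.00191). Vcp itself differed by 0.53 (adjusted p = 0.0455) and its other cofactor Ufd1 by 0.39 (adjusted p = 0.0241). Uba6, a ubiquitin-activating enzyme, was 1.59-fold higher in PICs (adjusted p = 0.00166).

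Of 6 tested ubiquitin ligases of muscle, 1 passed as higher in satellite cells and 1 as higher in PICs (28.6% and 27.6% of all genes). Fbxo32, atrogin-1, a ligase of muscle atrophy, was 3.41-fold higher in PICs (adjusted p = 0.000672). Asb2, a ligase of differentiating muscle, lay at 8.32, 8.28 and 7.91 in satellite cells and at 4.25, 3.17 and 3.17 in PICs, so that its fitted difference of 4.64 (adjusted p = 9.97e-05) is uncertain in size. Fbxo30, another ligase of muscle atrophy, was 2.01-fold higher in satellite cells with overlapping arrays and did not pass (adjusted p = 0.107), but passed with the replicate block (adjusted p = 0.00569), which gave 2 ligases higher in satellite cells. Trim63 and Trim54 were at or under the low value level on all arrays.

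**Figure D4:**
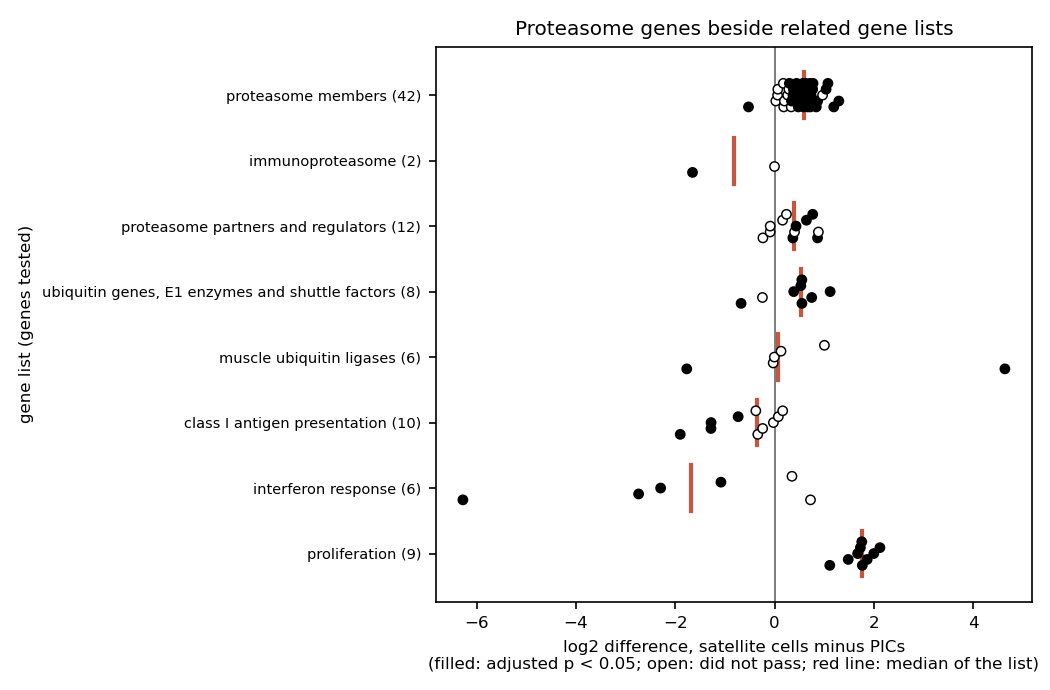
Log2 difference of each tested gene, satellite cells minus PICs (x axis), for the 42 proteasome genes and 7 related lists (y axis, number of genes tested in brackets); filled points passed at an adjusted p under 0.05, open points did not and red lines are medians. Proteasome and proliferation genes lie mostly to the right of 0, at medians of 0.59 and 1.76, and interferon genes mostly to the left.

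Several other signals moved with the same contrast. Over all genes tested, 28.6% passed towards satellite cells and 27.6% towards PICs. All 9 proliferation genes tested passed towards satellite cells, with a median of 1.76, with Ccna2 4.36-fold apart and with Mki67 at means of 11.02 in PICs and 13.02 in satellite cells. Their summed intensity ranged from 16574 to 18095 in PICs and from 46054 to 55841 in satellite cells; the part of proliferation in the proteasome difference was not tested. The 8 satellite cell markers all passed towards satellite cells, and 5 of 6 interstitial markers towards PICs, with Peg3, which encodes PW1, at 14.38 in PICs and 14.19 in satellite cells and not passing. Summed satellite cell markers ranged from 1189 to 3053 in PICs and from 29691 to 33651 in satellite cells. Summed interstitial markers, Peg3 among them, ranged from 77483 to 79965 in PICs and from 28086 to 35090 in satellite cells. Muscle fibre markers passed as higher in PICs in 5 of 7 members (summed intensity 6078 to 7466 in PICs, 3291 to 7738 in satellite cells). Endothelial markers passed in 0 of 5 (1211 to 4332 and 2033 to 2998; limma, with 0 at an unadjusted p under 0.05), and blood cell markers in 0 of 3 tested (limma, likewise 0 at an unadjusted p under 0.05). The blood cell marker Ptprc had intensities of 181 and 215 on the PIC and satellite arrays numbered 1 and at most 9 on the others; summed blood cell markers ranged from 75 to 555 in PICs and 69 to 695 in satellite cells. Schwann cell markers (191 to 293 and 50 to 131) passed as higher in PICs in 1 of 2 (2 with the replicate block), and pericyte and smooth muscle markers (5170 to 12728 and 5970 to 9973) in 1 of 5, with 1 higher in satellite cells. The part of these cells in the proteasome difference was not tested.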

How the data were processed

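The deposited table holds 1 linear intensity per probe set (45037) on each of 6 arrays of a 1-colour Affymetrix design. Per the submitters' processing notes the authors used GCRMA, with no version given in the sources used here; intensities were deposited as whole numbers. GCRMA forces equal distributions on all arrays and pulls dim probe sets to a floor, so levels are relative. No detection call or scan date was used.

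Log2 was taken. Probe sets with 1 gene symbol in the platform annotation and log2 above 4 on at least 3 arrays were kept, and the one with the highest mean over 6 arrays stood for its gene (10855 genes). The populations were compared with limma 3.58.1 (lmFit, eBayes, two-sided) under R 4.3.3. P-values were adjusted by Benjamini-Hochberg over the genes tested, and a gene passed at an adjusted p under 0.05. The script was tested on simulated data. Precision is limited by 3 arrays per population.

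The members, lists and tests were chosen with earlier results of these data known. Genes given on all arrays were up to 6 members per direction with the largest passing difference, Psmb5 to Psmb7, Psme1, members with an SD over 0.5, members under the filter, and Psmb8 to Psmb10 and Nfe2l1; up to 2 genes per related list and direction with the largest passing difference were named. Psma1, Psma7, Psmb4 and other names outside this rule were chosen after their values were seen. Deviations from the population mean over 10855 genes correlated at 0.623, 0.222 and 0.579 between arrays of equal replicate number and at -0.568 to 0.0363 otherwise, so the numbers were taken to pair the arrays, a pairing the labels do not state. Over the 42 members the correlations of equal numbers were 0.139, 0.653 and 0.62, and those of unequal numbers ran from -0.754 to 0.525. PIC array 1 with satellite array 2 (0.525) and PIC array 2 with satellite array 1 (0.437) exceeded the pair numbered 1. The members alone thus do not bear out the pairing of number 1. The alternatives were a replicate block, other scalings, filters, probe set choices, array weights, a variance trend and left-out arrays. Promoter windows are RefSeq's.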

Additional observations from a re-analysis of the deposited data

How the results depend on the processing

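The median difference of the proteasome genes stayed between 0.52 and 0.64 under all 19 alternatives, and the median over all genes between 0 and 0.11. The count of 31 members higher in satellite cells ranged from 20 to 31 when 1 array was left out, with the lowest value without satellite replicate 2. Without both arrays of 1 replicate number, an alternative chosen after seeing the data, it ranged from 3 (number 2) to 31 (number 3), with 12 without number 1. With 2 arrays per population the test has fewer degrees of freedom, whichever number is left out. Without number 2, 1517 genes of all passed as higher in satellite cells instead of 3108, and 1735 as higher in PICs instead of 2998. Without number 1 the counts were 2220 and 2463, and without number 3 they were 3242 and 2999. Why these counts differed was not tested. Among related genes 12 passed as higher in satellite cells without number 2, instead of 21, and 22 without number 3.

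The count of 1 member higher in PICs, Psmf1, became 0 with the mean of kept probe sets, without _x_at and _s_at probe sets and without both arrays numbered 2. Without _x_at and _s_at probe sets the Psmf1 difference reversed to 0.11 (adjusted p = 0.464). The count of 4 members past 2-fold was 2 without a filter on low values, ranged from 2 (without PIC replicate 3) to 5 (without satellite replicate 3) with 1 array left out, and was 0 without both arrays numbered 2. Without the filter 22 of 44 members passed as higher in satellite cells (14.6% of all genes), and with array weights 37 of 42 (38.7%). The replicate block turned Psma1 into a call and ended no call of a member. Arrays carry no read depth; dim genes near an intensity of 16 have no firm level.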
